A study of Mus musculus with 18 samples.

Results

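Transcripts of 10 genes that the visceral endoderm uses to secrete serum proteins and to absorb nutrients were followed in 18 RNA-seq libraries of differentiating female mouse embryonic stem (ES) cells with and without *Kdm6a*. The 10 genes, *Afp*, *Ttr*, *Apoa1*, *Apoa4*, *Apob*, *Amn*, *Cubn*, *Rbp4*, *Trf* and *Vtn*, were chosen by name, and all 10 are among the 24346 gene symbols that the tables of both cell lines share. *Kdm6a* is an X-linked gene that encodes a demethylase of the repressive histone mark H3K27me3, and the libraries were made to ask how its loss affects gene expression before and after differentiation. *Tsix*-stop cells come from a cross of a laboratory strain with *Mus castaneus* (*cast*) mice and carry a transcription stop on the non-*cast* allele of *Tsix*, in wt, KO and CRISPR control cells alike. They were sampled as ES cells (D0) and as embryoid bodies (D15), with 2 wt libraries, 2 KO libraries and 1 CRISPR control library on each day. The KO removes DNA from exon 2 to exon 4 on both alleles, with 1 library from each of 2 clones, and the labels do not say which clone gave which library. The CRISPR control is 1 clone that went through editing without the deletion. E8 cells come from a cross of C57BL/6J (BL6) and *cast* mice and were sampled at D7 and D15, with 2 wt and 2 KO libraries on each day, the KO being 1 clone without the *Kdm6a* promoter. The study's methods give other days and fewer libraries for E8, so the E8 days and replicates rest on the labels alone. Differentiation was not directed to a lineage, so each library mixes cell types, and the ES cells had been kept on a layer of fibroblasts.

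The visceral endoderm is the epithelium that covers the early mouse embryo and later lines the yolk sac, where it does the work that liver and intestine take over after birth. It packages lipid into lipoproteins (*Apoa1*, *Apoa4*, *Apob*), secretes carriers of hormones, vitamins, iron and fatty acids (*Ttr*, *Rbp4*, *Trf*, *Afp*), and takes up maternal protein through the cubam receptor, a complex of the binding subunit cubilin (*Cubn*) and the membrane anchor amnionless (*Amn*). It forms spontaneously at the surface of embryoid bodies, under the control of GATA and FOXA factors and of HNF4A. The fetal liver uses many of the same genes, and in bulk RNA fewer cells of a type and less RNA per cell cannot be told apart.

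Levels are given as TPM, a share of all transcripts that is corrected for gene length. For *Tsix*-stop the deposited values are read counts, from which TPM were computed here, while E8 was deposited as TPM, so levels of both lines are set side by side without a test. A gene was called when it passed a false discovery rate (FDR) of 0.1 and a 2-fold change, by edgeR on counts for *Tsix*-stop and by limma on log2(TPM + 1) for E8. Changes of E8 genes are on that scale, which understates the change of low genes. A *Tsix*-stop library held 51091148 to 68796172 counts, and the depth of the E8 libraries is unknown. *Kdm6a* itself was at 46.7 to 47.8 TPM in E8 wt and at 0.00578 to 0.0319 TPM in E8 KO. In *Tsix*-stop it was at 48.9 to 85.7 TPM in wt, at 55.6 and 41.7 TPM in KO replicate 1 (D0 and D15) and at 21.2 and 12.8 TPM in KO replicate 2, while the CRISPR control had 53.7 and 43.6 TPM. Counts of a whole gene cannot tell whether its deleted exons are missing. The CRISPR control libraries were deposited under names that call them KO. Their labels are followed here, so their values rest on a label in doubt. Nothing says that the E8 replicates were separate cultures, so p-values in E8 measure only the spread between these libraries, which may be technical.

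The DNA just before the start of these genes is shown for 4 members whose promoters hold a FOXA motif and for both cubam subunits, since most of them differ between KO and wt in the comparisons that follow. The bases are from RefSeq on GRCm38.p6, 5′ to 3′ on the strand of the gene, and end before the first transcribed base. Capitals mark letters that were searched on both strands. For HNF4 they were CAAAGTCCA. For nuclear receptors the half-site AGGTCA was searched. GATA factors were searched as AGATAA, and in a second form of the same length as TGATAA. FOXA factors were searched as TGTTTAC, and in a second form that differs near its end as TGTTTGC. No matches overlapped.
*Afp* (chr5:90490464-90490713, plus strand): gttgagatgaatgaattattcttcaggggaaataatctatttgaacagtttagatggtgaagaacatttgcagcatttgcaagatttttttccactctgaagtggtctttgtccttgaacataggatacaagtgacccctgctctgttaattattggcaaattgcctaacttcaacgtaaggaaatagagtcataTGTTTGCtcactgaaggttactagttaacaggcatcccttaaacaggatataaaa
*Apoa1* (chr9:46228380-46228579, plus strand): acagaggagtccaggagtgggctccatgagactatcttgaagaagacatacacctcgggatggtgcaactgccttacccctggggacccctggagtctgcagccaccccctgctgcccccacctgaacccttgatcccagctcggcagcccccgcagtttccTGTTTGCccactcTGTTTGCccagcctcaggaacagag
*Apob* (chr12:7977427-7977647, plus strand): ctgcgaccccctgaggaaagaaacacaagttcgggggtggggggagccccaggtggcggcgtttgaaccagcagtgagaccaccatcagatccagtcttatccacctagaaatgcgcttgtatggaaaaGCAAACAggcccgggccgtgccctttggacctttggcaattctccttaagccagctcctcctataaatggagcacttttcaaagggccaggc
*Rbp4* (chr19:38125322-38125571, minus strand): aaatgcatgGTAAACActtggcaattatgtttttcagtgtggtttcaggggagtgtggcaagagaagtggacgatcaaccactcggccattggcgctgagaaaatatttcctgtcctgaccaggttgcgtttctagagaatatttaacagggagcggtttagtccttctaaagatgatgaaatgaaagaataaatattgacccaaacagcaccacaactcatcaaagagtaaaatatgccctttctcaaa
*Cubn* (chr2:13491877-13492126, minus strand): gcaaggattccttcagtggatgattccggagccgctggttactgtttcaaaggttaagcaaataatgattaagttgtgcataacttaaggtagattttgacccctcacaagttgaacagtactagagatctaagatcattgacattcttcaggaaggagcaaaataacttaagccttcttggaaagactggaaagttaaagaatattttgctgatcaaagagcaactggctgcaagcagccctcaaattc
*Amn* (chr12:111270846-111271094, plus strand): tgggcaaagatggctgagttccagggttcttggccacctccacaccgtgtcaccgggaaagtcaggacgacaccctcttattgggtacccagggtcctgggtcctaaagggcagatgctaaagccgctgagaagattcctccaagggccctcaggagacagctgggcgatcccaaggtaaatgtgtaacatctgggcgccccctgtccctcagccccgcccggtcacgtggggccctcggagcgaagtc

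Promoters of 8 of the 10 genes were searched, since chromosome 18, which holds *Ttr*, was left out and no promoter of *Trf* was available. A FOXA motif lay in the 250 bases before the RefSeq start of 4 of these 8 genes, against 7.29% of 32851 promoters of the same length. *Apoa1* held 2 copies, which begin 88 and 75 bases before its RefSeq start (chr9:46228630). The sequence shown for *Apoa1* stops short of that site, before an earlier annotated gene start (46228580), so the copies lie nearer to its end. None of the 8 held a GATA motif, which 16.6% of all promoters did, the nuclear receptor half-site (14.0%) or the HNF4 letters (0.384%). A match to these letters is a description and does not show binding.

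In *Tsix*-stop wt cells 7 of the 10 genes were below 1 TPM at D0, and in all 10 both libraries of D15 were above both of D0, which held for 48.5% of all genes with a value. *Afp*, which encodes alpha-fetoprotein, the main serum protein of the fetus, had 2 counts in each wt library at D0 and 13907 and 14407 counts at D15, or 252 and 291 TPM. The ratio of its counts per total was 8056 (95% exact counting interval 3146 to 29570). *Ttr*, the carrier of thyroid hormone, had 0 counts in both wt libraries at D0 and 2334 and 2505 at D15, which is at least 923-fold higher against a floor of 3 counts per library. Counting intervals and floors cover counting error only. *Vtn*, which encodes the adhesive serum protein vitronectin, went from 0 counts in both libraries to 377 and 471, at least 163-fold higher.

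*Rbp4*, the carrier of retinol, was already detected in ES cells. It had 3.12 and 1.34 TPM in wt at D0 and 269 and 286 TPM at D15, a log2 fold change of 6.76 (SE 0.48, FDR 7.9e-06 by edgeR). *Apoa1*, the main protein of high-density lipoprotein, rose from 0.450 and 0.243 TPM to 174 and 218 TPM (log2 fold change 8.92), and *Apob*, which forms the core of the larger lipoproteins, rose from 0.102 and 0.383 TPM to 37.9 and 22.0 TPM (6.82). *Apoa4*, a minor apolipoprotein of gut and yolk sac, stayed low, with 0 counts in both wt libraries at D0 and 4.23 and 3.52 TPM at D15. It did not pass the filter on low counts in this line.

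Both receptor genes and *Trf* were called higher at D15 as well. *Cubn* rose from 0.0947 and 0.0884 TPM to 2.83 and 2.29 TPM (log2 fold change 4.62). *Amn* had 4.71 and 4.98 TPM at D0 and 10.3 and 12.4 TPM at D15 (log2 fold change 1.06, SE 0.48, FDR 0.079 by edgeR), a call that was lost without a filter on low counts (0.97), at an FDR of 0.05 and with any of the 4 wt libraries left out (0.89 to 1.25). *Trf*, which encodes the iron carrier transferrin, rose from 1.49 and 1.84 TPM to 6.87 and 9.32 TPM (2.12). In all, 9 of 10 members were tested in *Tsix*-stop and all 9 were called higher at D15 in wt, where 24.2% of all genes tested were. Most members passed the filter through their D15 values, so this count describes them and supports nothing further. With either wt D15 library left out 5 were called, since *Ttr*, *Apoa1* and *Vtn* then no longer passed the filter and *Amn* lost its call.

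**Figure D1:**
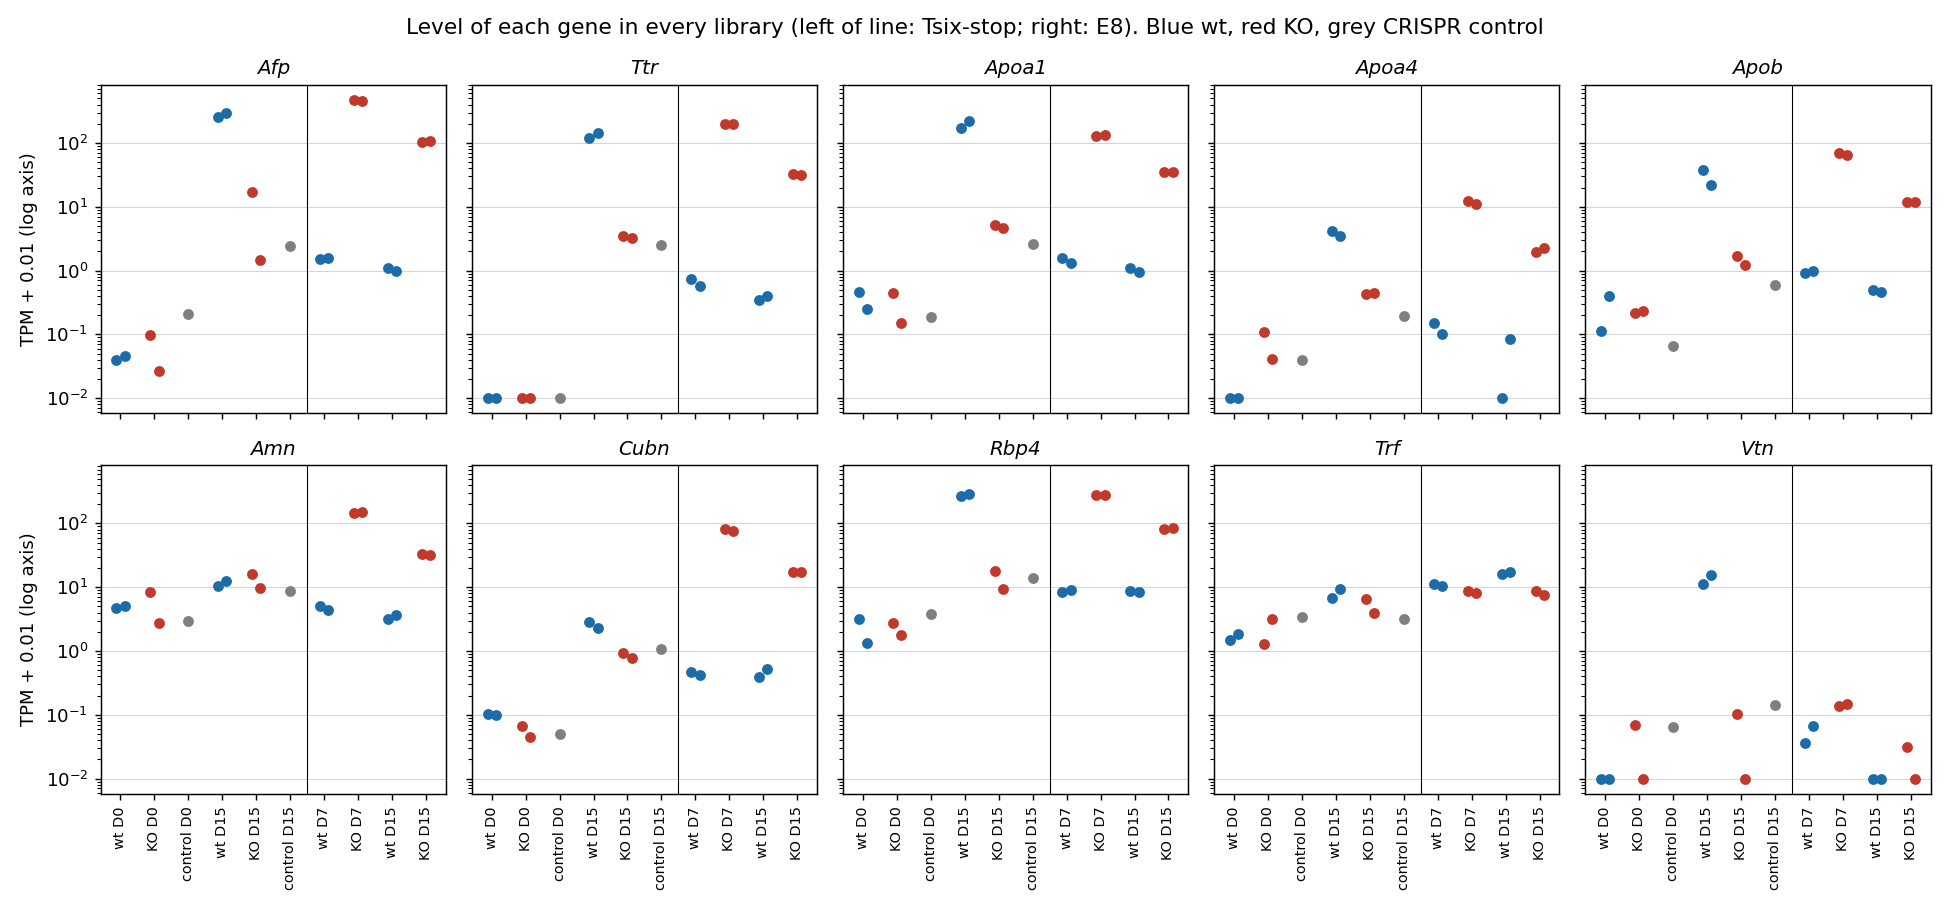
Level of each gene in every library, as TPM + 0.01 on a log axis, with one point per library (blue wt, red KO, grey CRISPR control; left of the line *Tsix*-stop, right of it E8). At D15 the *Tsix*-stop wt points of *Afp* (252 and 291 TPM) stand above the KO and control points, whereas in E8 the KO points stand above wt.

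At D15 most of these genes were far lower in *Tsix*-stop KO than in wt. *Afp* had 252 and 291 TPM in wt and 16.9 and 1.47 TPM in KO, so the groups were well apart although the KO libraries themselves differed by more than any other member detected in both (log2 fold change −4.85, SE 0.85, FDR 0.0038 by edgeR). *Ttr* had 120.0 and 144 TPM in wt and 3.49 and 3.28 TPM in KO (−5.28, SE 0.25, FDR 1.2e-04 by edgeR). *Apoa1* had 174 and 218 TPM in wt and 5.20 and 4.63 TPM in KO (−5.31, SE 0.30, FDR 4.7e-05 by edgeR). For *Ttr* and *Apoa1* the libraries of each group were close together, and the gap between groups was many times the spread within them.

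*Apob* fell from 37.9 and 22.0 TPM in wt to 1.67 and 1.22 TPM in KO (log2 fold change −4.36, SE 0.45, FDR 4.6e-04 by edgeR). *Rbp4* fell from 269 and 286 TPM to 17.7 and 9.21 TPM (−4.35, SE 0.41, FDR 3.3e-04 by edgeR). *Vtn* was nearly absent from KO, with 3 and 0 counts against 377 and 471 in wt. The ratio of its counts per total was 264 (95% exact counting interval 90.0 to 1283), and its FDR was 5.2e-04 by edgeR. *Apoa4*, which was not tested, had 4.23 and 3.52 TPM in wt and 0.421 and 0.428 TPM in KO.

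Of the absorptive pair *Cubn* was called lower and *Amn* was not. *Cubn* was at 2.83 and 2.29 TPM in wt and at 0.934 and 0.767 TPM in KO (log2 fold change −1.58, SE 0.28, FDR 0.0037 by edgeR). *Amn* was at 10.3 and 12.4 TPM in wt and at 16.1 and 9.74 TPM in KO, so its groups overlapped (0.19, SE 0.47, FDR 0.78 by edgeR). *Trf* had 6.87 and 9.32 TPM in wt and 6.62 and 3.90 TPM in KO, with no overlap but no call (−0.62, SE 0.43, FDR 0.29 by edgeR). Thus 7 of the 9 genes tested were called lower in KO, where 11.1% of all genes tested were, and none was called higher. All libraries of KO were below those of wt for 9 of the 10 genes, against 35.5% of all genes with a value. *Ttr*, *Apoa1* and *Vtn* passed the filter on the wt D15 libraries alone, so with either of these left out 4 genes were called. The count of 7 therefore describes the members and supports nothing further.

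**Figure D2:**
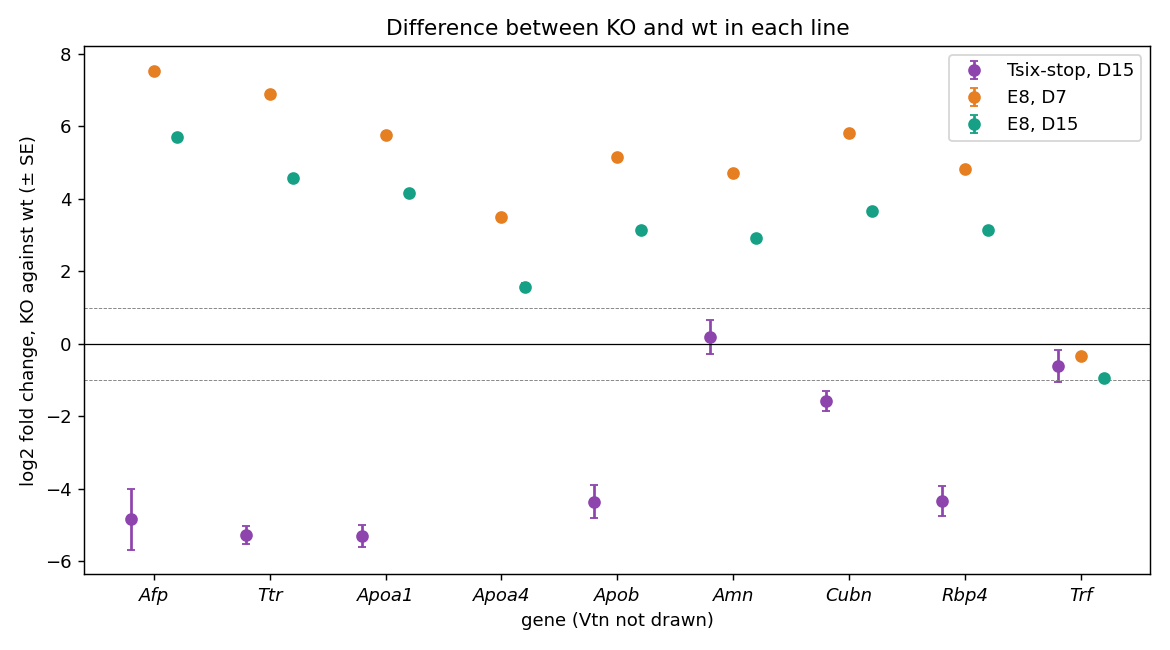
Log2 fold change of KO against wt for each gene tested, with its standard error, in *Tsix*-stop at D15 (edgeR) and in E8 at D7 and D15 (limma on log2(TPM + 1)); dashed lines mark a 2-fold change. *Afp* lies at −4.85 in *Tsix*-stop and at 7.52 and 5.70 in E8, and *Trf* is the one gene drawn that lies below 0 in all 3.

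The CRISPR control library at D15 lay nearer to KO than to wt for 8 of the 9 members with counts enough to compare. Its level was below both wt libraries for all 10 members, which held for 39.9% of all genes with a value, and was more than 2-fold below the wt mean for 9 of them. The share of all genes nearer to KO, or more than 2-fold below wt, was not computed, so those counts describe the members only. *Afp* had 2.45 TPM in the control, between the KO libraries and 109-fold below the wt mean in counts per total. *Ttr* had 2.47 TPM, *Apoa1* 2.64 TPM and *Apob* 0.588 TPM, each below both KO libraries. *Rbp4* had 14.1 TPM, within the range of KO, and *Vtn* had 4 counts. *Cubn* had 1.06 TPM, above both KO libraries and 2.38-fold below wt, and *Amn* was again the least different, at 8.61 TPM. The control is 1 library, so these differences have no replicate check. When it was added to the wt group, *Afp* (FDR 0.11), *Ttr* (0.10) and *Cubn* (0.13) were no longer called by edgeR and 4 members were, with *Afp* at −4.27.

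Before differentiation there was little difference. At D0 only *Cubn* was called lower in KO (log2 fold change −1.13, SE 0.37, FDR 0.081 by edgeR), from 28 and 22 counts in wt and 14 and 9 in KO. This is 1 of 9 genes tested, where 5.01% of all genes tested were called lower, and the call was lost with counts on the *cast* genome (FDR 0.11), with limma, at an FDR of 0.05, with the CRISPR control added to wt, and without either wt library of D0 or D15 or without KO replicate 2 of D0 (log2 fold changes −1.22 to −0.80). *Amn* had 8.28 TPM in KO replicate 1 and 2.73 TPM in replicate 2, on either side of wt, and *Rbp4* had 2.75 and 1.79 TPM, within the range of wt. *Ttr* had 0 counts in all 5 D0 libraries.

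Most of the genes were induced in *Tsix*-stop KO as well, to a lower level. Between D0 and D15 in KO, 8 of the 9 genes tested were called higher, where 20% of all genes tested were, and the exception was *Vtn*, which had at most 3 counts in any KO library. *Cubn* rose by 4.18 on the log2 scale in KO and by 4.62 in wt, and *Amn* by 1.18 and 1.06. The KO call was lost for *Amn* at an FDR of 0.05 and for *Trf* (1.22) with limma (0.99). With the CRISPR control added to wt it was lost for *Amn*, *Trf* and *Apob*. Without KO D15 replicate 1 the changes of *Amn* and *Trf* were 0.75 and 0.76. *Amn* was at 0.58 without KO D0 replicate 2, and *Trf* at 0.72 without KO D0 replicate 1. *Apoa1* rose by 4.04 in KO and by 8.92 in wt, *Apob* by 2.71 and 6.82, and *Rbp4* by 2.53 and 6.76. The difference between these changes was called by the interaction term of edgeR for *Apoa1* (−4.88, SE 0.74, FDR 0.0037), *Rbp4* (−4.23, SE 0.62, FDR 0.0034), *Apob* (−4.10, SE 0.68, FDR 0.0054) and *Vtn*, whose D0 counts were at most 2. These are 4 of 9 genes tested, where 10.5% of all genes tested had a negative call. Since *Apoa1* and *Vtn* passed the filter on the wt D15 libraries alone, this count describes the members and supports nothing further. The term for *Afp* was −5.38 with an SE of 4.18 (FDR 0.38 by edgeR) and was called by DESeq2, by limma, and by edgeR without KO D15 replicate 1 (−8.06) or without KO D15 replicate 2 (−4.48). It was −0.44 for *Cubn* (SE 0.48) and for *Amn* 0.12 (SE 0.68). With the CRISPR control added to wt none of these terms was called by edgeR, and with either wt D15 library left out 2 were, *Apob* and *Rbp4*.

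In E8 cells the difference between KO and wt went the other way. At D7 *Afp* had 1.53 and 1.58 TPM in wt and 475 and 463 TPM in KO, a log2 difference of 7.52 (SE 0.040, FDR 1.6e-10 by limma). *Ttr* had 0.730 and 0.561 TPM in wt and 195 and 197 TPM in KO (6.91). *Rbp4* was at 8.42 and 9.09 TPM in wt and at 278 and 275 TPM in KO (4.83). The KO replicates were close together and the groups were far apart in each of these genes.

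The lipoprotein genes differed in the same direction. *Apoa1* had 1.58 and 1.29 TPM in E8 wt at D7 and 127 and 133 TPM in KO (log2 difference 5.75), *Apob* had 0.908 and 0.973 TPM against 69.3 and 66.0 TPM (5.14), and *Apoa4* had 0.141 and 0.0900 TPM against 12.3 and 10.9 TPM (3.50). Both cubam subunits were high in KO. *Cubn* had 0.454 and 0.405 TPM in wt and 82.2 and 76.9 TPM in KO (5.82), and *Amn* 5.11 and 4.38 TPM in wt and 144 and 154 TPM in KO (4.71). By limma 8 of the 9 genes tested were called higher in KO at D7, where 11.4% of all genes tested were. Of these 8, 6 passed the filter of 2.5 TPM through their KO libraries alone (all but *Amn* and *Rbp4*), and *Apoa4* through those of D7 alone. Counts of members called in E8, here and at D15, therefore describe them and support nothing further.

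*Trf* and *Vtn* had other patterns. *Trf* had 11.2 and 10.4 TPM in E8 wt at D7 and 8.56 and 8.25 TPM in KO, and at D15 15.9 and 17.3 TPM in wt and 8.75 and 7.54 TPM in KO. Its log2 difference was −0.33 at D7 (FDR 0.0044) and −0.94 at D15 (FDR 1.9e-05 by limma), both under the 2-fold limit, and at D15 it was called lower under 3 alternatives, with −1.02 to −1.04. *Vtn* was at 0.128 and 0.140 TPM in KO at D7 and at 0.0267 and 0.0569 TPM in wt, too low to be tested.

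By D15 the levels of these 8 genes in E8 KO had fallen. *Afp* fell from 475 and 463 TPM to 103 and 106 TPM, a log2 change of −2.16 (SE 0.040, FDR 1.4e-07 by limma). *Ttr* fell to 32.3 and 31.1 TPM (−2.59) and *Rbp4* to 82.3 and 84.4 TPM (−1.72), which were the ends of the range among the 8 called. *Cubn* fell to 17.4 and 17.2 TPM (−2.14) and *Amn* to 32.8 and 31.9 TPM (−2.17). These are 8 of 9 genes tested, where 2.70% of all genes tested were called lower. *Trf* stayed at 8.75 and 7.54 TPM (−0.04).

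At D15 the same 8 genes were called higher in E8 KO than in wt, where 7.67% of all genes tested were, with log2 differences from 1.58 for *Apoa4* to 5.70 for *Afp*. In wt *Rbp4* had 8.42 and 9.09 TPM at D7 and 8.71 and 8.55 TPM at D15. *Apob* was at 0.908 and 0.973 TPM and then at 0.483 and 0.447 TPM, and *Afp* was at 1.08 and 0.984 TPM at D15. Both wt libraries of D15 were below both of D7 for 7 of the 10 members, against 31.3% of all genes with a value, and above them for *Trf*. No member was called between D7 and D15 in wt by limma, where 1.41% of all genes tested were. Of the 9, 6 passed the FDR of 0.1 and missed the call on the 2-fold limit alone. Their log2 changes lay between −0.41 (*Apob*) and 0.57 (*Trf*). The interaction of KO and day was called with a negative sign for 8 of 9 genes, from −1.58 for *Apoa1* to −2.32 for *Ttr*, where 3.36% of all genes tested had one. The log2(TPM + 1) scale understates a fall of low genes in wt, which makes such a term more negative. *Apob*, for example, went from a mean of 0.941 to 0.465 TPM in wt. Under alternatives the term of *Ttr* lay between −2.39 and −1.94 and that of *Apob* between −2.05 and −1.62.

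**Figure D3:**
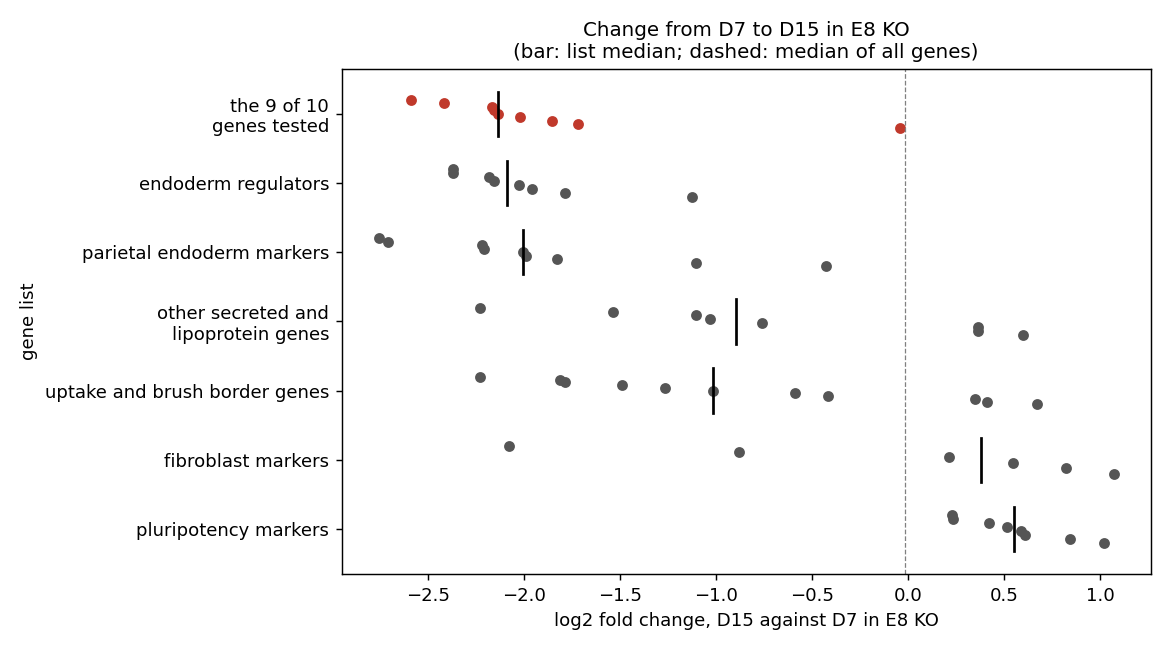
Log2 fold change from D7 to D15 in E8 KO by limma on log2(TPM + 1), one point per gene tested, for the 9 members tested and 6 other lists; bars are list medians and the dashed line is the median of all genes tested. Of the 9 members, 8 lie between −2.59 and −1.72 and *Trf* lies at −0.04.

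At D15 every KO library lay below wt in *Tsix*-stop and above wt in E8 for 7 of the 10 genes, against 23.4% of all genes with a value in both lines. Set side by side, the highest level of 9 genes was in *Tsix*-stop wt at D15 or in E8 KO at D7, and that of *Trf* was in E8 wt at D15 (15.9 and 17.3 TPM). *Rbp4* had 269 and 286 TPM in the former and 278 and 275 TPM in the latter, and *Apoa1* had 174 and 218 against 127 and 133 TPM. *Cubn*, by contrast, had 2.83 and 2.29 TPM in *Tsix*-stop wt and 82.2 and 76.9 TPM in E8 KO. Within a library, *Cubn* amounted to 1.12 and 0.786 TPM per 100 TPM of *Afp* in *Tsix*-stop wt at D15. In E8 KO it amounted to 17.3 and 16.6 at D7 and to 16.9 and 16.2 at D15, so the ratio was kept while both genes fell. *Amn* amounted to 4.09 and 4.26 per 100 TPM of *Afp* in *Tsix*-stop wt and to 30.1 to 33.2 in E8 KO. *Vtn* showed the reverse, with 4.50 and 5.42 per 100 TPM of *Afp* in *Tsix*-stop wt and at most 0.0302 in E8 KO. These ratios rest on the gene lengths behind each table, which are not given for E8, and were not tested.

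The order of the genes also differed. In *Tsix*-stop wt at D15 it ran from *Rbp4* (278 TPM) and *Afp* (271 TPM), whose libraries overlap, through *Apoa1*, *Ttr*, *Apob*, *Vtn*, *Amn*, *Trf* and *Apoa4* to *Cubn* (2.56 TPM). The libraries of *Vtn* and *Amn* overlapped, and those of the other neighbours did not. In E8 KO at D7 it ran from *Afp* (469 TPM) through *Rbp4*, *Ttr*, *Amn*, *Apoa1*, *Cubn*, *Apob*, *Apoa4* and *Trf* to *Vtn* (0.134 TPM), and no neighbours overlapped. In E8 wt at both days *Trf* (10.8 TPM at D7 and 16.6 TPM at D15) and *Rbp4* (8.75 and 8.63 TPM) led.

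The factors that direct endoderm moved with these genes in both lines. Of 8 endoderm regulators 7 were tested in *Tsix*-stop, and all 7 were called lower in KO at D15, the median of their log2 fold changes being −3.06 against −0.0018 over all genes tested. The values were −3.62 for *Foxa1*, a pioneer factor of gut endoderm, −3.35 for *Hnf4a*, a nuclear receptor of liver and gut genes, −3.11 for *Gata6*, which starts the endoderm program, and −3.06 for *Sox17*. In E8 KO all 8 were called higher at D7 (median 3.75 against 0.10), among them *Gata4* (4.24), *Sox17* (4.17) and *Gata6* (4.03). All 8 then fell by D15 (median −2.09 against −0.01). Of all genes tested, 11.1% were called lower in *Tsix*-stop KO at D15, 11.4% higher in E8 KO at D7 and 2.7% lower by D15 in E8 KO. Some regulators, such as *Sox17* (0.419 to 1.81 TPM in E8 wt), passed the E8 filter through KO libraries alone. Counts called in E8 for this list and those that follow therefore describe the genes and support nothing further. Their summed level was 169 and 159 TPM in *Tsix*-stop wt at D15, 18.9 and 26.1 TPM in KO and 30 TPM in the CRISPR control, and 351 and 348 TPM in E8 KO at D7.

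Of 14 other secreted and lipoprotein genes 9 were tested in *Tsix*-stop, of which 6 were called lower in KO at D15 and none higher (median −2.91). *Ahsg* (0.83, FDR 0.061) and *Apoa2* (0.73, FDR 0.076 by edgeR) were higher in KO but under the 2-fold limit. Among those called, the values were −6.43 for *Fgb*, a chain of fibrinogen, −5.87 for *Serpinf2*, an inhibitor of plasmin, −3.45 for *Spink1*, a trypsin inhibitor, and −3.28 for *Apom*, which was already called lower at D0 (−1.53). Unlike the members, *Apom* fell between D0 and D15 in wt (−1.41). In E8 KO at D7 5 of 8 were called higher and none lower (median 2.59), with *Spink1* at 5.96 and *Apoc2* at 4.22. *Apoc2* was at 1.23 to 1.88 TPM in E8 wt and passed the filter through KO libraries alone. *Apoe*, which many cell types make, was not called between KO and wt in either line. *Alb*, the serum albumin gene that marks hepatocytes, was at 0.339 TPM or less in every library.

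Of 12 uptake and brush border genes 11 were tested in each line, and 5 were called lower in *Tsix*-stop KO at D15 (median −0.70). They were *Dab2*, the endocytic adaptor of cubam and megalin (−2.72), *Vil1* (−2.06), *Stra6*, the receptor of RBP4 (−1.40), *Tcn2*, a carrier of vitamin B12 (−1.17), and *Lrp2*, which encodes megalin (−1.10). *Dab2* (−3.05, FDR 0.0019) and *Lrp2* (−2.00, FDR 0.020 by edgeR) were already called lower in KO at D0, and their interaction terms of 0.33 and 0.90 were not called. In E8 KO at D7 5 were called higher and 1 lower (median 0.85), led by *Dab2* (5.17), *Lrp2* (3.37) and *Lrpap1* (2.44), and the one lower was *Tfrc*, the transferrin receptor (−1.0). In the CRISPR control at D15 *Lrp2* was at 38.4 TPM, above the 13.8 and 13.3 TPM of wt, unlike the members.

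**Figure D4:**
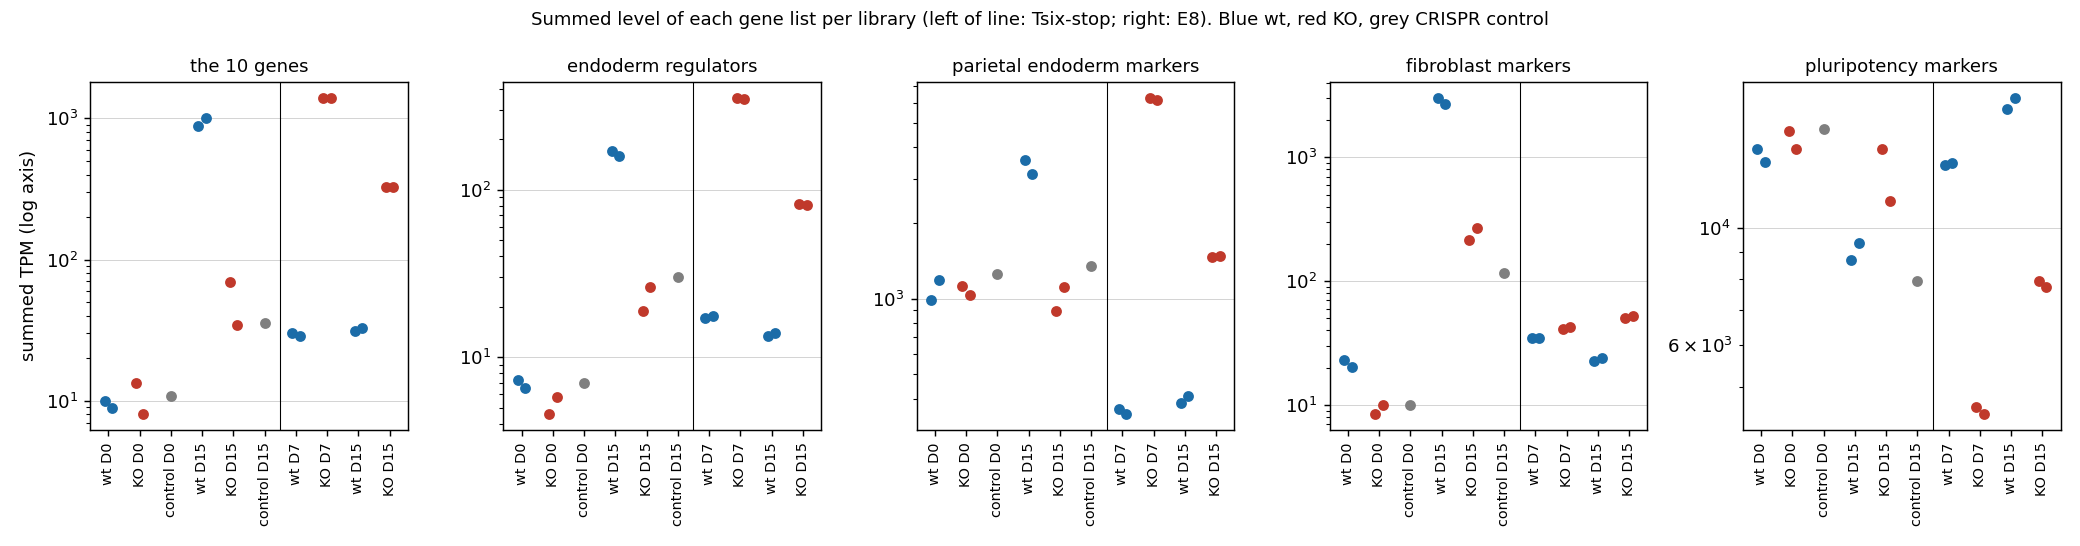
Summed TPM of the 10 genes and of 4 other lists in every library on log axes, one point per library (blue wt, red KO, grey CRISPR control; left of the line *Tsix*-stop, right of it E8). The 10 genes sum to 889 and 1004 TPM in *Tsix*-stop wt at D15 and to 35.4 TPM in the control, and to 1391 and 1383 TPM in E8 KO at D7.

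Markers of other cell types moved in the same libraries. Parietal endoderm, the sister layer that lays down basement membrane, is marked by *Col4a1*, *Col4a2*, *Lama1* and *Sparc* among 9 genes, of which 7 were called lower in *Tsix*-stop KO at D15 (median −1.74) and 8 higher in E8 KO at D7 (median 4.09). Their sum was 6290 and 6200 TPM in E8 KO at D7, against 365 and 348 TPM in wt, and 3570 and 3140 TPM in *Tsix*-stop wt at D15, against 891 to 1117 TPM in KO and 1343 TPM in the CRISPR control, and none of the 9 was at 0. The 8 fibroblast markers summed to 3010 and 2673 TPM in *Tsix*-stop wt at D15 and to 216 and 271 TPM in KO, with 7 called lower, and to 117 TPM in the CRISPR control, below both KO libraries. In E8 they summed to 34.6 and 34.5 TPM in wt and 41.4 and 42.4 TPM in KO at D7, with 4 of 6 tested called higher and 1 lower (median 2.68). At D15 they summed to 22.5 and 24.0 TPM in wt and 50.6 and 52.2 TPM in KO, with 5 called higher and 1 lower. Fibroblast markers such as *Col1a1* (0.225 to 0.622 TPM in E8 wt) passed the filter through KO libraries alone, so these counts describe the list only. Over all genes tested, 11.4% were called higher at D7 and 7.67% at D15. The 8 pluripotency markers summed to 4593 and 4456 TPM in E8 KO at D7 and to 13134 and 13246 TPM in wt, with 6 called lower in KO, where 6.18% of all genes tested were. They were still at 16773 and 17548 TPM in E8 wt at D15 and at 7933 and 7721 TPM in KO. In *Tsix*-stop at D15 they summed to 8700 and 9361 TPM in wt, to 14067 and 11210 TPM in KO and to 7914 TPM in the CRISPR control, with 3 called higher in KO, where 3.83% of all genes tested were. *Dppa5a* held most of these sums, with 5419 and 5819 TPM in wt and 4262 TPM in the control. In the control *Nanog* (569 TPM), *Sox2* (620 TPM), *Zfp42* (425 TPM) and *Esrrb* (309 TPM) were above both wt libraries. *Dppa5a* and *Tdgf1* were below both, and *Pou5f1* and *Klf2* lay between them. Of the cardiac muscle markers 5 of 7 tested were called lower in *Tsix*-stop KO at D15, and of the neural markers 2 of 4 were called higher and 1 lower. In E8 KO at D7 2 of 3 cardiac and 0 of 5 neural markers tested were called, those 2 lower. The part of these cell types in the differences of the 10 genes was not tested.

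Of the reads that cover a SNP in *Tsix*-stop cells, the share assigned to the pseudo-129 genome, that is, to the non-*cast* allele, was taken for members with at least 20 such reads in a library. *Afp* came from both alleles, with 56.7% (95% Wilson interval 55.0 to 58.4) and 58.4% of reads from the non-*cast* allele in the wt libraries at D15 and 65.0% and 63.6% in KO, the latter from 206 and 22 reads. *Rbp4* was at 66.3% and 66.9% in wt and 69.4% and 71.4% in KO. *Cubn* was at 55.3% and 51.8% in wt and 57.4% and 45.9% in KO. Both KO shares of *Afp* and of *Rbp4* were above both wt shares. For these 3 genes the intervals of KO overlap those of wt, which does not test a difference, and a shift of a few percent was not detectable at this depth. The CRISPR control had 63.6% for *Afp*, 64.5% for *Cubn* and 52.2% (42.0 to 62.2) for *Rbp4*. The last lay below both wt intervals of *Rbp4* (64.2 to 68.3 and 64.6 to 69.1).

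For both members on chromosome 12 the intervals of KO lay apart from those of wt at D15. *Apob* (chromosome 12, 7977648 to 8016835 on GRCm38) had 24.8% (22.8 to 26.9) and 25.0% (22.2 to 28.1) of its reads from the non-*cast* allele in wt at D15, and 67.8% (55.1 to 78.3) and 65.5% (47.3 to 80.1) in KO. *Amn* (chromosome 12, 111271095 to 111276426) had 50.5% and 41.8% in wt and 87.7% and 90.0% in KO, from 70 to 130 reads each, and at D0 it had 50% and 30.3% in wt and 77.9% and 79.2% in KO. Their neighbours were shifted too. Over 36 genes within 5 Mb of *Apob*, the median share was 36.9% and 37.6% in wt and 53.1% and 52.3% in KO at D15, and over 63 to 72 genes around *Amn* it was 38.1% and 38.6% in wt and 52.6% and 53.3% in KO. In the CRISPR control these medians were 33.9% and 35.4%, near wt, although its levels of the secreted genes were near KO. The control had 73.8% for *Amn* (61.6 to 83.2) and 33.3% for *Apob*, the latter from 24 reads.

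**Figure D5:**
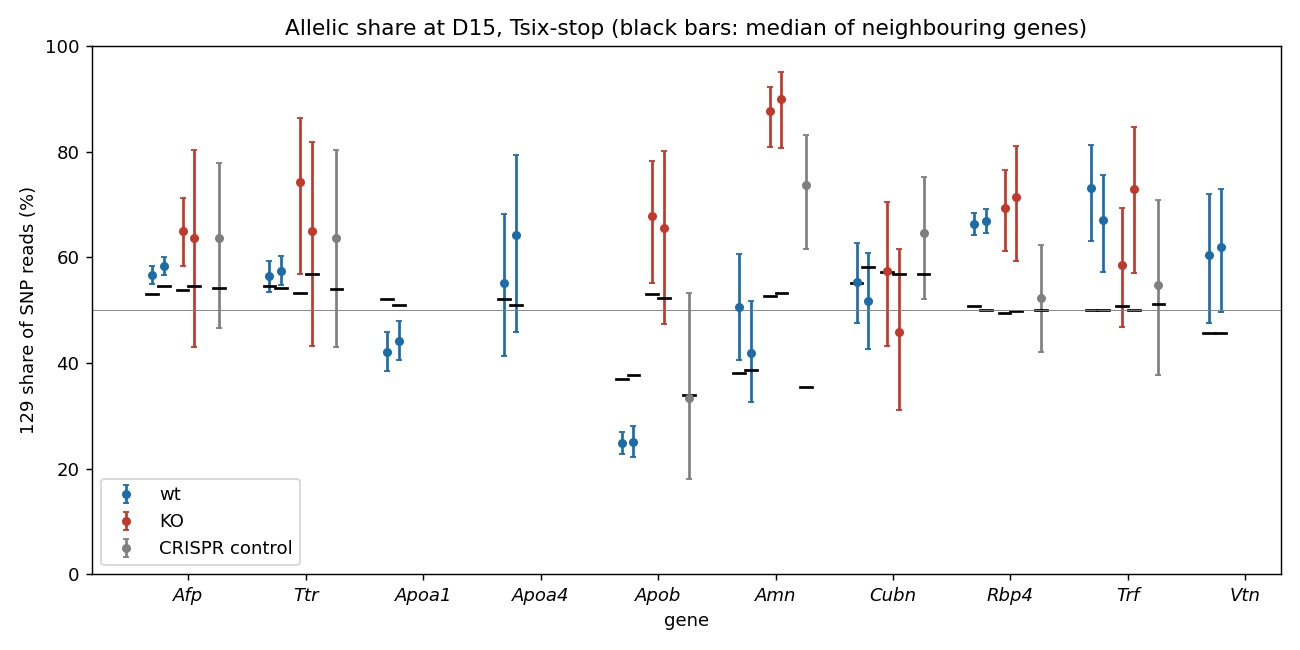
Share of SNP reads from the non-*cast* (pseudo-129) allele in percent for each gene at D15 in *Tsix*-stop, one point per library with at least 20 SNP reads and its 95% Wilson interval (blue wt, red KO, grey CRISPR control); black bars are the median share of genes within 5 Mb in the same library. *Apob* and *Amn* lie higher in KO (65.5% to 67.8% and 87.7% to 90.0%) than in wt, and the bars of their neighbours are also higher in KO.

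The genes whose pattern was most like that of the members were found by Pearson's r with the mean standardised profile of the 9 members tested, as a description over libraries that fall into groups. Over the 10 *Tsix*-stop libraries they were *P3h2* (0.99), *Tmod1* (0.99), *Cd93* (0.99), *Smoc2* (0.99) and *Enpp1* (0.99). Over the 8 E8 libraries they were *Pdf*, *Cryab*, *Spock1*, *Dab2* and *Plaur*, each above 0.99. *P3h2* and *Enpp1* were also at 0.99 in E8, whereas *Pdf* was at −0.76 in *Tsix*-stop. Among the members, *Amn* had the lowest r in *Tsix*-stop (0.71), and *Trf*, at 0.88 there, was at −0.73 in E8.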

How the data were processed

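RNA-seq libraries (75 bp single-end) were aligned by the authors to mm10, and the processing notes list Bowtie2 2.4.5 and TopHat2 2.1.1. The strand setting and gene annotation are not given in the sources used here. For *Tsix*-stop the authors deposited estimated counts per gene, of which 7.10% were not whole and were rounded here, and counts of SNP reads by allele. For E8 the deposited values are TPM, and rows of 537 repeated symbols were summed. TPM of *Tsix*-stop were computed from counts and GENCODE exon lengths on GRCm38, known for 23999 genes. The 13121 genes with at least 2.5 CPM in 2 libraries were tested by edgeR 4.0.16 (quasi-likelihood test, TMM), and the 12452 genes with at least 2.5 TPM in 2 libraries by limma 3.58.1 with trend, in R 4.3.3. Each fit held the 8 wt and KO libraries of a line, and p-values were adjusted by Benjamini-Hochberg. *Apoa4* in *Tsix*-stop and *Vtn* in E8 did not pass these filters. Ratios for genes with 3 counts or fewer use counts per total with an exact interval. DESeq2 1.42.0 and other settings were alternatives. The fits were tested on simulated data. The 10 genes, the other lists and the tests were chosen with earlier results of these data known. All 10 genes are named, as are the 5 genes most like the members in each line and, in the main fits, the members behind a count of 5 or fewer. Of the endoderm, secreted and uptake lists, called genes are named by size of change, but not in full for every comparison. Called genes of the other cell type lists are counted and not ranked. An item that the rule would name is not reported here. *Lrp2* and the pluripotency genes in the CRISPR control, the genes given as low in E8 wt, and the *Apoe*, *Alb*, *Ahsg*, *Apoa2* and allelic examples were chosen after their values were seen.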

Additional observations from a re-analysis of the deposited data

Results flagged for a closer look

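The change between D0 and D15 differed between KO and wt in *Tsix*-stop by the interaction term of edgeR for *Apoa1* (log2 −4.88), *Apob* (−4.10) and *Rbp4* (−4.23). In E8 the change between D7 and D15 differed between KO and wt by the interaction term of limma for 8 genes, with log2 values of −1.82 for *Afp*, −2.32 for *Ttr*, −1.58 for *Apoa1*, −1.92 for *Apoa4*, −2.01 for *Apob*, −1.78 for *Amn*, −2.16 for *Cubn* and −1.70 for *Rbp4*.

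For 7 genes every KO library at D15 lay below wt in *Tsix*-stop and above wt in E8, against 23.4% of all genes with a value in both lines. Their mean level in E8 KO at D15 was 104 TPM for *Afp*, 31.7 TPM for *Ttr*, 35.2 TPM for *Apoa1*, 2.1 TPM for *Apoa4*, 11.8 TPM for *Apob*, 17.3 TPM for *Cubn* and 83.4 TPM for *Rbp4*. This difference between the lines was not tested. The lines differ in cross, in the transcription stop in *Tsix*, and in deletion, clones and kind of file, and these cannot be told apart.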

How the results depend on the processing

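The counts of members called in E8 stayed within 1.5 times under every alternative run. In *Tsix*-stop, with 2.5 CPM required in 4 libraries, 3 members were called between KO and wt at D15, 5 between days in wt, 5 between days in KO and 2 for the interaction, since only *Amn*, *Apob*, *Cubn*, *Rbp4* and *Trf* were then tested. With the CRISPR control added to wt these counts at D15, between days in KO and for the interaction were 4, 5 and 0. At D0 the count was 0 with the CRISPR control added, with *cast* genome counts, with limma and at an FDR of 0.05. With limma 7 interaction terms were called, and the cause was not tested.

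Leaving out 1 library at a time gave 0 to 1 called at D0, 4 to 7 at D15, 5 to 9 between days in wt, 6 to 8 between days in KO and 2 to 5 for the interaction. In E8 it gave 7 to 8 at D7, 7 to 9 at D15, 0 to 0 and 7 to 8 between days in wt and KO, and 7 to 8 for the interaction.

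Directions turned for values that were not called. At D0 these were *Afp* (−0.80), *Apob* (0.18) and *Trf* (−0.10) with the CRISPR control added, and *Rbp4* (0.058) with limma. With 1 library left out at D0, *Afp* ranged from −0.98 to 1.29, *Apoa1* from −1.45 to 0.20, *Apob* from −0.92 to 0.91, *Amn* from −0.96 to 0.68, *Rbp4* from −0.62 to 0.68 and *Trf* from −0.48 to 0.78. *Amn* ranged from −0.22 to 0.56 at D15 and from −0.46 to 1.16 for the interaction. In E8 *Cubn* ranged from −0.042 to 0.078 and *Rbp4* from −0.067 to 0.032 between days in wt, and *Trf* from −0.14 to 0.052 in KO.

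The replicate numbers do not pair samples by the labels, and same-numbered libraries had correlations of −0.26 to 0.25. With a replicate block the counts were 1, 7, 9, 8 and 4 in *Tsix*-stop and 8, 8, 0, 8 and 8 in E8, as without it, and *Amn* at D0 turned to −0.045. Depth limits the allelic shares of *Apob* and *Afp* in KO, and E8 depth is unknown.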
